A study of Mus musculus with 2 samples.

Results

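The mitochondrial ribosomal protein genes were taken as every gene whose name on the array began with Mrpl (large subunit) or Mrps (small subunit) followed by a digit. They numbered 77 of the 19220 genes tested, 48 of the large subunit and 29 of the small, and were read by 109 probes on 136 spots. None of the 77 passed the test for a difference between cells given FGF23 and unstimulated cells. Their mean log2 ratios lay between -0.16 (Mrpl12) and 0.14 (Mrpl14).

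The arrays compared mIMCD3 cells, an established line of mouse epithelial cells derived from the collecting duct of the inner medulla, cultured with 10 ng/mL FGF23 for 4 h or without it. FGF23 is a hormone made by bone cells that acts on the kidney through receptors of the FGF family together with Klotho. Per the series' stated design, the question was whether it acts on tubule epithelial cells beyond the handling of calcium and phosphate. There were 2 two-colour arrays, each holding RNA of both conditions, with FGF23 RNA in the dye Cy3 on array 1 and in Cy5 on array 2. Separate cultures for the arrays are not stated in the labels, so every p-value measures only the spread between these arrays, which may be technical. No term for the dye was fitted, so this spread, and every SD over the 2 arrays, also holds any effect of the dyes. A single cell line at one dose and one time was studied.

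Mitochondria translate the few proteins encoded by their own DNA, core subunits of the respiratory chain and of ATP synthase, on a ribosome of their own. All the protein parts of that ribosome are encoded in the nucleus, made in the cytosol and imported. The small subunit binds the messenger RNA and holds the decoding centre, and the large subunit joins the amino acids. Many of the proteins descend from the bacterial ribosome, while others are found only in mitochondria. Cells rich in mitochondria depend on this translation for oxidative phosphorylation.

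The genes lay on 17 chromosomes, with 10 on chromosome 11, 8 on chromosome 17, 7 on chromosome 6 and 6 on chromosome 7. All probes were 60 bases long. The longest run of bases that probes of different genes shared was 11 (Mrpl13 and Mrps26), and within the Mrps18 family it was 8. The probes below belong to the genes that the results turn on: Mrpl12, Mrpl19, Mrpl14 and Mrps18c, which had means among the lowest or highest with 1 sign on both arrays, and the other Mrps18 genes, which are copies of one bacterial gene. Mrpl19 and Mrps18b are shown with all 60 bases and the others with their first 30, all in lower case, 5′ to 3′ in the direction of the transcript.
Mrpl12: ctggagtgaggcatggttatgaggacttac
Mrpl14: aaggagagtattccaaggtcctggccatcg
Mrpl19: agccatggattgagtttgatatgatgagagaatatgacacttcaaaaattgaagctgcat
Mrps18a: aagatgatgcattagtgggagcaggacttc
Mrps18b: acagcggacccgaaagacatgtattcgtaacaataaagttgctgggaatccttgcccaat
Mrps18c: ccgagaataaattttgtatttgtgaagttc
In the mouse build mm9, the file's own, the probes covered chr11:120349740-120349799 on the plus strand (Mrpl12), chr17:45835317-45835376 on the plus strand (Mrpl14) and chr6:81911970-81912029 on the minus strand (Mrpl19). The Mrps18a probe covered chr17:46265584-46265643 on the plus strand and the Mrps18c probe chr5:101233418-101233477 on the plus strand. The Mrps18b probe shown is the dimmest of 3 and lay within chr17:36051313-36051461 on the minus strand, a span of 149 bases for its 60, so its genomic match is interrupted. Whether a probe lies in coding sequence or a UTR was not analysed here.

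Every one of the 77 genes was read well above background with and without FGF23 on each array, and no spot of theirs was saturated or an outlier. In limma, with Benjamini-Hochberg adjustment over all 19220 genes, 0 of the 77 had an adjusted p under 0.05, against 0.0468% of all genes (9 genes). At an unadjusted p under 0.05 the count was also 0, against 3.91% of all genes. Each of the 7 alternatives that gave a test also had 0 at both limits. The 95% interval of the mean log2 ratio included 0 for all 77. These intervals are per gene, not adjusted for the number of genes, and draw their spread mostly from all genes together. They reached at most from -0.34 to 0.34, so that the data leave room for a level up to 1.27-fold lower or 1.26-fold higher in single genes. Per the file headers, the fitted slope of the spike-in controls, measured against expected log ratio, was 0.851 and 0.852, so the ratios of these controls were smaller than the true ones.

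**Figure D1:**
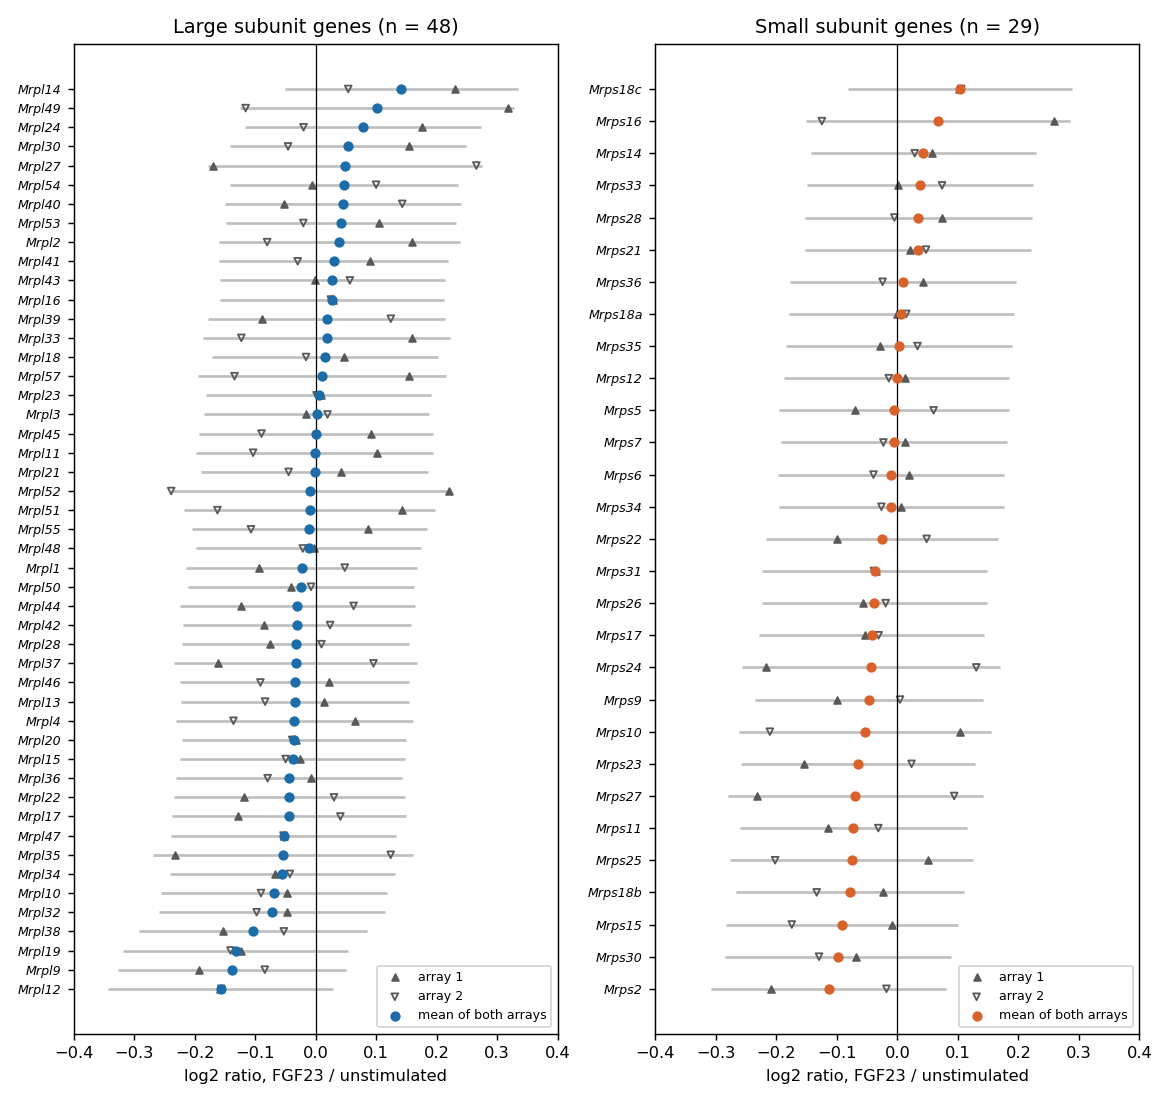
Mean log2 ratio (FGF23 over unstimulated) of each of the 77 genes over 2 arrays, with the 95% limma interval as a line and the value of each array as points, by subunit. Every interval crosses 0, and the means lie between -0.16 (Mrpl12) and 0.14 (Mrpl14).

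The group sat close to the rest of the genes. On array 1 the median log2 ratio of the 77 was -0.0082 against -0.012 for all genes, and on array 2 it was -0.023 against 0.015. The median of the means was -0.012, against -0.00068 for all genes and 0.00037 for the 11688 other genes of like brightness, that is, in the same 1-unit bands of mean log2 intensity. On arrays 1 and 2 those genes of like brightness had medians of -0.0063 and 0.014. Members set against the median of their band had medians of -0.024 on array 1 and -0.017 on array 2, below 0 on both. The means spread less than those of genes at large, with an SD of 0.055 against 0.092. No member had a mean beyond 0.2 in either direction, while 419 of the 11688 other genes in the same bands did. Between the 10th and 90th percentile of all genes (-0.10 to 0.11) lay 71 members, or 92.2%.

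Signs differed between the arrays for most of the genes. Above 0 on both arrays were 7 of the 77, or 9.09%, against 23.9% of all genes. Below 0 on both were 21, or 27.3%, against 22.3% of all genes. The other 49 were above 0 on one array and below on the other. Across the 77 genes, the log2 ratio on array 1 and that on array 2 were related with a Pearson r of -0.46 (-0.12 across all genes). The points share arrays and dyes and are not independent, so this is a description. Because the dyes were swapped, a part of the ratio that follows the dye takes opposite signs on the arrays, as array noise can, and the count of signs does not tell them apart. Signs were opposite in 63.6% of the members and 53.8% of all genes.

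**Figure D2:**
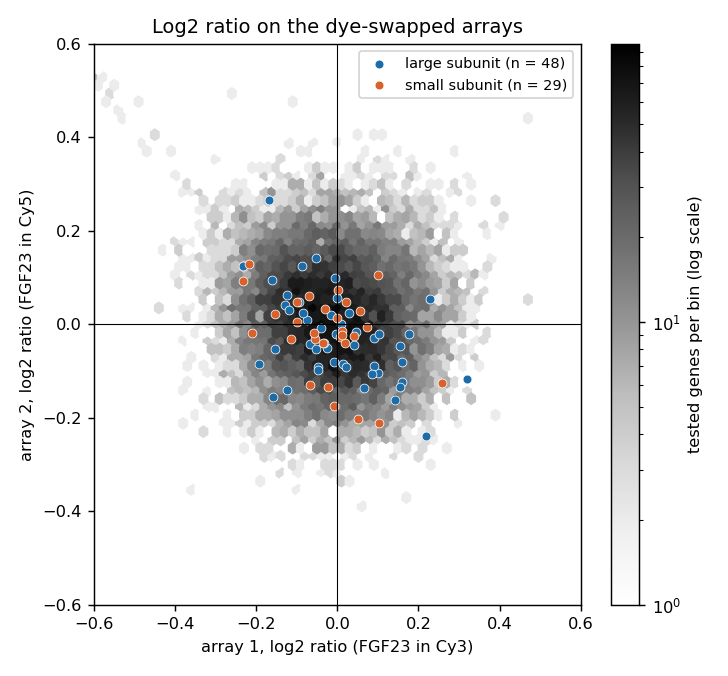
Log2 ratio (FGF23 over unstimulated) on array 1 (horizontal) and array 2 (vertical) for the 77 genes, coloured by subunit, over all tested genes. There were 7 genes above 0 on both arrays and 21 below 0 on both, and 49 fell in the quadrants of opposite sign.

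The order of the subunits differed between the arrays. The large subunit genes had a median log2 ratio of -0.0073 on array 1 and -0.041 on array 2, and the small subunit genes -0.0086 and -0.018. Large minus small was therefore 0.0013 on array 1 and -0.023 on array 2, with opposite signs and an SD of 0.017 (n = 2). Taken over the gene means, the medians were -0.011 (large) and -0.026 (small), a difference of 0.015. A median of means need not lie between the medians of the arrays, and here the difference of the means had the other sign from that of array 2. With each gene set against the median of its brightness band, the large subunit had medians of -0.024 (array 1) and -0.028 (array 2). The small subunit had -0.017 and -0.0086. Large minus small was then -0.0070 on array 1 and -0.020 on array 2, here of 1 sign, and 0.016 over the means. No test of the difference between the subunits was run. Of the large subunit genes 3 were above 0 on both arrays and 13 below, and of the small subunit genes 4 and 8. The spread of means was 0.057 (SD over 48 genes) and 0.052 (SD over 29 genes).

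The genes were also divided by number, as a rough guide to descent that was not checked gene by gene. Those taken to have a bacterial counterpart (Mrpl numbers to 36 with Mrpl47 and Mrpl55, Mrps numbers to 21) were 46, with a median of means of -0.028. The other 31, taken to be found only in mitochondria and including Mrps36, had a median of -0.010. Of the former, 6 were above 0 on both arrays and 15 below, and of the latter 1 and 6. On single arrays the medians were -0.0084 and -0.035 for the former and -0.0063 and -0.020 for the latter. Within the large subunit the medians of means were -0.034 (former, 30 genes) and -0.0043 (latter, 18 genes). Within the small subunit they were -0.0078 (former, 16 genes) and -0.037 (latter, 13 genes), so over the means the order turned around between subunits. On array 1 alone the order also turned, with -0.022 and -0.0016 in the large subunit and 0.0053 and -0.036 in the small. On array 2 it did not, with -0.045 and -0.021 in the large subunit and -0.021 and -0.0051 in the small. No test of this split was run.

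Mrpl12, a stalk protein of the large subunit that recruits translation factors and is known to bind the mitochondrial RNA polymerase, had the lowest mean. Its normalised log2 intensity was 13.31 with FGF23 and 13.47 without on array 1, and 13.37 and 13.53 on array 2. FGF23 was the lower on both arrays, by nearly the same amount. The log2 ratios were -0.16 on both, with a mean of -0.16 ± 0.0017 (SD, n = 2), or 0.897 times the unstimulated level. Its interval ran from -0.34 to 0.029, and limma gave an unadjusted p of 0.091 and an adjusted p of 1.0 (adjusted p was 1.0 for all 77). The test replaces the small spread of these 2 values by one shared over all genes.

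Its partners in the stalk base were nearer 0. Mrpl10, which anchors the stalk, had log2 ratios of -0.048 and -0.090, with a mean of -0.069 ± 0.030 (SD, n = 2). Its second probe gave -0.064. Mrpl11, of the GTPase centre, had 0.10 and -0.10, on opposite sides of 0.

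Mrpl9 and Mrpl19, counterparts of bacterial large subunit proteins, were the next lowest. Mrpl19 had 9.68 with FGF23 and 9.81 without on array 1, and 9.68 and 9.83 on array 2. FGF23 was again the lower on both arrays. Its mean log2 ratio was -0.13 ± 0.012 (SD, n = 2), with a limma interval of -0.32 to 0.054. Mrpl9 had 11.20 and 11.39 on array 1 and 11.26 and 11.35 on array 2, or a mean of -0.14 ± 0.076 (SD, n = 2). Its second, much dimmer probe gave -0.14. Mrpl38, a protein of the large subunit that is found only in mitochondria, had -0.15 and -0.053 (mean -0.10). Mrpl47 had -0.053 on both arrays with the probe used. The other, dimmer probes of Mrpl47 had 0.11, 0.30 and 0.048 on array 1, with means over both arrays of -0.0076, 0.079 and -0.0080.

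Mrpl14, a protein of the face that meets the small subunit, had the highest mean. Its log2 intensity was 14.20 with FGF23 and 13.97 without on array 1, and 14.09 and 14.04 on array 2. FGF23 was the higher on both arrays, by far more on array 1. The mean log2 ratio was 0.14 ± 0.12 (SD, n = 2), with a limma interval of -0.052 to 0.34. The other large subunit genes above 0 on both arrays were Mrpl16 (0.029 and 0.025) and Mrpl23 (0.0092 and 0.0014), both near 0.

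On each array the log2 ratio farthest from 0 belonged to a gene of opposite sign on the other array, Mrpl49 on array 1 and Mrpl27 on array 2. Mrpl49, found only in mitochondria, had 12.06 with FGF23 and 11.74 without on array 1, and 11.89 and 12.01 on array 2. The ratios were 0.32 and -0.12, and a second probe of Mrpl49 gave a mean of -0.028. Mrpl27 had -0.17 and 0.27, and Mrpl52 had 0.22 and -0.24.

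Further large subunit genes were described for their role or brightness. Mrpl2, close to the site where peptide bonds form, had 0.16 and -0.080, and Mrpl3, which folds against the ribosomal RNA, had -0.017 and 0.020. Mrpl44, with a fold like that of RNase III, had -0.12 and 0.063, and Mrpl42 had -0.086 and 0.024. Besides Mrpl14, the large subunit's brightest probes were those of Mrpl33 (0.16 and -0.12) and Mrpl20 (-0.033 and -0.039). Among Mrpl2, Mrpl3, Mrpl44, Mrpl42, Mrpl33 and Mrpl20, only Mrpl20 had 1 sign on both arrays.

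The Mrps18 genes, Mrps18a, Mrps18b and Mrps18c, encode 3 relatives of the bacterial small subunit protein S18, and in solved structures Mrps18a sits in the large subunit. Mrps18c had 13.40 with FGF23 and 13.30 without on array 1, and 13.42 and 13.31 on array 2. FGF23 was the higher on both arrays, with a mean log2 ratio of 0.10 ± 0.0026 (SD, n = 2) and a limma interval of -0.083 to 0.29. Mrps18b had 13.27 and 13.30, then 13.24 and 13.37, with a mean of -0.079 ± 0.077 (SD, n = 2). Its other probes gave means of -0.087 and -0.11, so all 3 lay below 0. The dimmest, whose sequence is shown, had -0.25 on array 1 and 0.024 on array 2. Mrps18a had 11.72 in both conditions on array 1, and 11.82 and 11.80 on array 2, with a mean of 0.0066 ± 0.011 (SD, n = 2). The intervals of the 3 genes overlap, and the differences among them were not tested.

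Among the other small subunit genes, Mrps30, which structures also place in the large subunit, had -0.068 and -0.13 (mean -0.099). Mrps11, of the platform, had -0.11 and -0.032, Mrps17 had -0.054 and -0.031, and Mrps31 had -0.036 and -0.039. Above 0 on both arrays were Mrps18c, Mrps33 (0.0014 and 0.074), Mrps14 (0.057 and 0.029) and Mrps21 (0.021 and 0.047). The second kept probe of Mrps14, which was much dimmer, gave a mean of -0.079. Second probes of Mrps33 and Mrps21 gave 0.0030 and 0.050. Mrps12, counterpart of a bacterial protein of the decoding centre, had 0.012 and -0.014, and Mrps7, of the head, had 0.012 and -0.023. Mrps5 had -0.071 and 0.060. Mrps36, now known as a part of the oxoglutarate dehydrogenase complex rather than of the ribosome, had 0.042 and -0.025. Counting Mrps18a and Mrps30 with the large subunit and leaving out Mrps36 gave medians of -0.011 (large) and -0.031 (small).

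Of the 77 genes, 26 had more than 1 kept probe, which shows how far probes of a gene differed on the same RNA. The source of such gaps was not tested. The means of a gene's probes differed by at most 0.13 (Mrpl41, 0.030 and -0.11), about as much as the farthest means lay from 0. The second Mrpl41 probe was much dimmer (mean log2 intensity 7.35 against 12.6). In Mrpl49, whose probes were close in brightness (11.9 and 11.7), the gap was also 0.13 (0.10 and -0.028). In 9 genes the probes fell on opposite sides of 0: Mrpl30, Mrpl39, Mrpl40, Mrpl41, Mrpl43, Mrpl47, Mrpl49, Mrps14 and Mrps25. The probe used had a mean of 0.054 for Mrpl30, 0.018 for Mrpl39, 0.046 for Mrpl40, 0.028 for Mrpl43 and -0.076 for Mrps25. A probe each of Mrpl34, Mrpl50 and Mrps35 was printed on 10 spots, whose log2 ratios had an SD within an array of 0.014 to 0.044.

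The ratios moved with probe brightness. Across the 77 genes, brightness (mean log2 intensity) and the mean log2 ratio had a Pearson r of 0.44 and a Spearman rho of 0.46. Brightness and the difference between the arrays (array 2 minus array 1), which holds dye and array noise alike, had a Pearson r of -0.50. These genes share arrays, so both are descriptions. Below a brightness of 11, a limit set after the values were seen, 16 of 17 genes had a mean below 0, with a median of -0.035. Of other genes, 51.1%, 48.7% and 49.1% had a mean below 0 in the bands that start at 8, 9 and 10. The 6862 other genes between 8 and 11 had a median of 0.00078. These 17 genes had medians of -0.099 on array 1 and 0.0095 on array 2. Among them Mrpl10, Mrpl19 and Mrpl46 were lower on array 2 than on array 1, and the other 14 lower on array 1. Of the 17, 6 (35.3%) were below 0 on both arrays, against 21.8% of the other genes between 8 and 11. From 11 upwards the 60 members had a median of -0.0037, against -0.00017 for 4826 other genes. In each of the 6 bands with 5 or more members, the members spread less than the other genes. The part of brightness in these values was not tested.

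**Figure D3:**
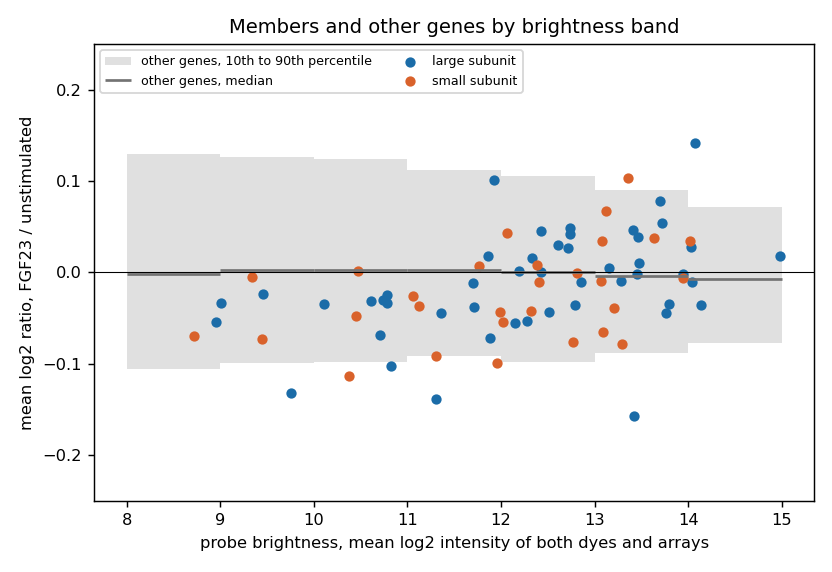
Mean log2 ratio (FGF23 over unstimulated) of the 77 genes against probe brightness (mean log2 intensity), with the median and the 10th to 90th percentile of other genes in each 1-unit band. Below 11, 16 of 17 genes lie under 0, against 48.7% to 51.1% of other genes by band, whose medians stay close to 0.

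Promoters of these genes held motifs known from nuclear genes for mitochondrial proteins more often than promoters at large. RefSeq promoters (build GRCm38.p6, 250 bases before to 50 after each start) were matched for 68 of the genes, as 74 promoters, and were searched on both strands. The NRF1 motif (GCGC, then any base, then TGCGC) was in 13 of 74 (17.6%) against 4.60% of all 32851 promoters, the ETS motif CCGGAAG in 25 (33.8%) against 8.86%, and the YY1 motif AAGATGGCG in 8 (10.8%) against 1.40%. The E-box CACGTG, read by Myc and its relatives, was in 7 (9.46%) against 7.15%. Any of the first 3 motifs was in 40 (54.1%) against 13.6%. The bases before the start are shown for Mrpl12, with its NRF1 match in capitals, and for Mrps18c, with its ETS match in capitals on the opposite strand, as the genes that were lowest and highest with the same size on both arrays.
Mrpl12: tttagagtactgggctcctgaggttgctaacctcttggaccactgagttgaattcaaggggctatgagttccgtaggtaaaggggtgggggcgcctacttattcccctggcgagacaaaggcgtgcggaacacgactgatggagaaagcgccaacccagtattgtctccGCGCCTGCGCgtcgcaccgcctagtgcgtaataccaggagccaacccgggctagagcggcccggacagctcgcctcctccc
Mrps18c: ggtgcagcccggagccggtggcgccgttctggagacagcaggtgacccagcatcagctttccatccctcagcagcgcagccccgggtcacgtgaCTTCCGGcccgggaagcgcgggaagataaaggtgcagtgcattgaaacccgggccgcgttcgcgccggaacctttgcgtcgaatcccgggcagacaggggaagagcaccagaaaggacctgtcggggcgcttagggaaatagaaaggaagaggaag
These are the plus strands of chr11:120484387-120484636 and chr5:100798509-100798758. A match is a description of letters and not a shown site of binding. Genes with the NRF1 motif had a median of means of -0.030 and those without it -0.010. For the ETS motif the values were -0.0012 and -0.031, for YY1 -0.044 and -0.0098, and for the E-box -0.033 and -0.010. Genes with the NRF1 motif included both Mrpl12 and Mrpl14, the lowest and highest means of all members (-0.16 and 0.14). The differences by motif were not tested.

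The factors that read such sites and their co-activators also did not pass the test. Of the 14 regulators listed, 11 were measured, and limma called 0 at either limit. Myc, a transcription factor that drives growth and ribosome production, had the largest difference, with -0.081 and -0.28 on the arrays, a mean of -0.18 and an unadjusted limma p of 0.070. Gabpa, the ETS factor of mitochondrial genes, had 0.23 and 0.034, and Yy1 had 0.25 and -0.021. Nrf1 had -0.17 and 0.017, Esrra, a nuclear receptor of energy metabolism, had 0.28 and -0.12, and the co-activators Ppargc1a and Pprc1 had 0.051 and 0.14, and 0.089 and -0.19. Ppargc1b did not pass the filter on dim probes.

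The other machinery of mitochondrial translation also gave no call, with 0 genes called at an adjusted or unadjusted limma p under 0.05 in each list. The 6 mitoribosomal proteins with other names had a median of -0.038, among them Ptcd3 (-0.050 and -0.10), an RNA-binding protein of the small subunit, and Dap3 (0.17 and -0.077). Of 19 listed translation factors 18 were measured, with a median of 0.0072. The lowest were the initiation factor Mtif2 (-0.39 and 0.086) and the elongation factor Tsfm (-0.086 and -0.21). The 19 measured of 20 listed aminoacyl-tRNA synthetases and amidotransferase parts, which charge tRNAs, had a median of 0.0044. The 29 measured of 30 assembly factors had a median of -0.014, with Pnpt1 at -0.18 and -0.083, the rRNA chaperone Eral1 at -0.11 and -0.13, and Mettl17 at 0.12 and 0.091. The 13 genes of mitochondrial DNA upkeep and transcription had a median of -0.0084, and among them the elongation factor Tefm had -0.18 and -0.032.

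Larger families give a scale for these values. The 79 measured genes named as nuclear subunits of oxidative phosphorylation, the process that this ribosome supplies with core subunits, had a median of 0.030. Of them 26 (32.9%, against 23.9% of all genes) were above 0 on both arrays and 5 (6.33%, against 22.3%) below, while of the mitochondrial ribosomal genes 7 and 21 were. None of the 79 was called, and 2 had an unadjusted limma p under 0.05, a limit that 3.91% of all genes passed. The 76 proteins of the cytosolic ribosome had a median of 0.0017, with 10 above 0 on both arrays and 8 below, and 0 called at either limit. Their probes were far brighter than those of the mitochondrial ribosome (median log2 intensity 16.5 against 12.4), so the families were read on different parts of the scale. The difference between families was not tested.

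**Figure D4:**
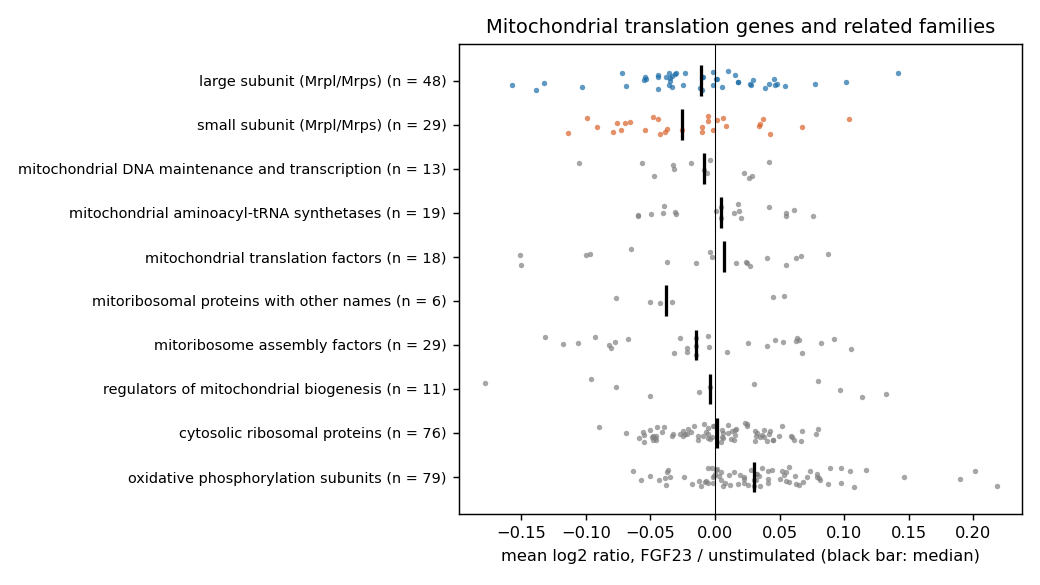
Mean log2 ratio (FGF23 over unstimulated) of every gene in the large and small subunit of the mitochondrial ribosome and in the related gene lists, with each list's median as a bar. The medians run from -0.038 (mitoribosomal proteins with other names) to 0.030 (oxidative phosphorylation subunits).

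Each array held 62976 spots, 59305 of them not controls, and 48.2% to 55.2% of spots were well above background in a channel, and there were 2 arrays. Of 15 listed markers of collecting duct and ureteric epithelium, 13 were measured, and Aqp3 and Avpr2 were not. Measured means only that a probe passed the filter on dim probes. Measured markers numbered 3 of 5 for proximal tubule, 1 of 6 for fibroblasts, 2 of 5 for macrophages and 2 of 4 for endothelium. Among the collecting duct and ureteric markers, mean log2 intensity was lowest for Pax2 (6.84), Lhx1 (6.91), Scnn1a (7.19) and Aqp2 (7.52). It was highest for Krt18 (16.60), Krt8 (15.73) and Cdh16 (14.02). The macrophage marker Csf1r had 11.45 and the endothelial marker Kdr 11.34. The identity of the cells was not tested. None of the markers passed the limma test.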

How the data were processed

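RNA of mIMCD3 cells with and without FGF23 was hybridised to 2 dye-swapped Agilent arrays. The deposited files hold the scanner's mean signal and background as intensity in linear units, written by Feature Extraction 11.5.1.1. The deposited files also hold a log10 ratio (Cy5 against Cy3), already corrected for background and dye by that software. Both statements come from the file headers. In limma 3.58.1 (R 4.3.3), mean signals were corrected with normexp (offset 50) and normalized by loess within each array, with control spots at weight 0. Ratios were turned to FGF23 over unstimulated from the dyes in the labels. Spots marked as outliers were dropped before averaging over the spots of each probe. Probes well above background on both arrays in one condition were kept (26941 of 55681), and the brightest kept probe stood for a gene. Symbols were updated through RefSeq transcripts (GRCm38.p6) where a transcript matched (28026 probes), which renamed 1651. Members kept the name on the array. Of the members' 109 probes 99 matched and 106 were kept.

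The fit over all 19220 genes used lmFit and eBayes (residual df 1, prior df 11.9), with Benjamini-Hochberg adjustment and a threshold of 0.05. The fit was tested on simulated data. Array 1 and array 2 are replicate 1 and replicate 2. The members and lists were chosen with earlier results of these data known. Genes named in the text were, per subunit, up to 5 in each direction with the largest smaller value of 1 sign on both arrays, the 3 brightest, any past the test, any whose probes differed in sign or by over 0.2, and a set chosen for role. From each list up to 4 with the largest mean were eligible, and the regulators. Mrpl27 and Mrpl52 were named after their values were seen. The pattern for cytosolic ribosomal proteins was narrowed after a first run because it took in kinases, and that for oxidative phosphorylation because it took in a pseudogene. Alternatives were the scanner's log ratio, offset 0, median centring, no filter and a stricter filter on dim probes, the mean over probes, an intensity trend with a robust prior, another subunit assignment, and each array alone. The trend and robust prior was added for the gene lists after seeing the data.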

Additional observations from a re-analysis of the deposited data

How the results depend on the processing

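No member and no gene of the lists of mitochondrial genes and regulators passed the limma test under any alternative (scanner log ratio, offset 0, median centring, no filter, stricter filter, mean over probes, trend with robust prior), and no member had an unadjusted p under 0.05. Genes called over the whole array ranged from 0 (median centring, scanner log ratio) to 79 (trend and robust prior), against 9. The median of the small subunit genes moved from -0.026 to -0.018 with the mean over probes and to -0.038 with median centring. Leaving out an array in turn gave -0.018 to -0.0086 for the small subunit, -0.041 to -0.0073 for the large and -0.023 to 0.0013 for large minus small. The other alternatives left the large subunit's median below 0 and large minus small above 0, and moved both by less than the spread between arrays. The count of members with 1 sign on both arrays was 28, 24 to 32 under the others, and 0 with median centring. Median centring leaves the intensity-dependent dye trend in place, with array medians of all genes at -0.57 and 0.56, and only 3.34% of all genes were then below 0 on both arrays and 3.03% above. That count cannot be had from 1 array. Of 462 values of single members under these alternatives, 22 changed sign and none left the moderated SD. On single arrays, 49 of 154 changed sign and 22 left it. No paired analysis was possible because each array's ratio already holds both conditions, so the array is the pair. With 2 dye-swapped arrays and no dye term, log2 differences below about 0.19 could not be told from 0 even by the unadjusted intervals. That value is the shortest reach of a member's 95% interval to either side of its mean. The adjusted test was stricter, and called 9 of all genes while 670 had a mean beyond 0.2 in either direction.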
